A study of Mus musculus with 4 samples.

Results

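Axin2 and 9 further genes that canonical Wnt signalling is known to switch on as feedback or direct targets were followed in mouse mammary basal epithelial colonies grown with or without Wnt3A. The members were named as genes for their known role and not by a threshold on measured values, although the list was drawn up with earlier results of these data known. They were Axin2, Lef1, Tcf7, Nkd1, Nkd2, Notum, Sp5, Rnf43, Znrf3 and Apcdd1. A probe set is a group of short probes on an Affymetrix array that is read as 1 value. Every probe set whose single gene symbol in the array annotation was one of these names was taken. This gave 9 of the 10 genes, of 18193 genes named this way on the array, with 23 of the 45037 probe sets tested. No probe set carried Tcf7 as its single symbol in the annotation used, and its expression was not analysed here. Apcdd1 had 6 probe sets, Nkd1 and Nkd2 had 4 each, Axin2, Lef1 and Znrf3 had 2 each, and Notum, Sp5 and Rnf43 had 1 each.

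The cells came from mammary glands of virgin CD1 females aged 8 to 12 weeks and were sorted as Lin-, CD24+ and CD29hi, a gate enriched for mammary stem cells. They were grown as colonies in Matrigel, a gel of basement membrane proteins, through passage 2, the second colonies being harvested after 6 to 7 days. The medium held 50 ng/ml EGF for all 4 samples. Cells of the 2 control samples received vehicle (1% CHAPS in PBS, spelled vesicle in some of the labels). Those of the other 2 samples received purified Wnt3A at 200 ng/ml throughout the culture period. The labels name no transgene or deletion in either group. Whether arrays 1 and 2 of a group stem from different animals or cultures is not in the labels, so a p-value here reflects only how far these arrays spread, which can be technical. The comparison asked how these genes stood in Wnt3A colonies relative to vehicle colonies.

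Canonical Wnt ligands such as Wnt3A bind a Frizzled receptor and an Lrp co-receptor, which stops the destruction complex, built on Axin, from breaking down beta-catenin. Beta-catenin then enters the nucleus and, with transcription factors of the Tcf/Lef family, turns on target genes. Many of these targets restrain the pathway: Axin2 rebuilds the destruction complex, Notum removes a lipid from secreted Wnt proteins, Rnf43 and Znrf3 mark Frizzled receptors for removal, Nkd1 and Nkd2 act on Dishevelled, and Apcdd1 is a membrane inhibitor. In the mammary gland, Axin2 is widely used as a reporter of Wnt-responsive cells.

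Deposited values were on the log2 scale, each given as the difference from the median of that probe set over the 4 arrays, so they compare arrays within a probe set and carry no level to set 1 gene against another. A level band was read for each probe set from the spacing of its stored numbers, as log2 8 to 16, 4 to 8 or below 4 on the array where the probe set was lowest. By this reading 9 member probe sets lay in the upper band, 12 in the middle band and 2 in the lowest band. A band does not show that a gene was expressed: the probe set of Cd3e, a T-cell gene, also fell in the middle band. The basal keratin genes Krt5 and Krt14 were in the upper band in 1 of 1 and 3 of 3 probe sets. Of 8 probe sets of leukocyte genes, 3 were in the lowest band, both of Ptprc among them. Another 4 were in the middle band and 1, that of Cd68, was in the upper. The upper band also held Krt8 and Krt18, keratins of luminal cells. Array medians lay between -0.016 and 0.020.

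No probe set, member or other, passed the test. The moderated test of limma called 0 of 45037 probe sets at a Benjamini-Hochberg adjusted p under 0.05 (0.0%), and the smallest adjusted p was 0.51. At an unadjusted p under 0.05 there were 2801 probe sets (6.22%), and 5 of the 23 member probe sets were among them: 1 each for Axin2 and Notum and 3 for Apcdd1. All 5 were higher with Wnt3A, as were 2.98% of all probe sets at that p. An exact permutation test of 2 against 2 arrays cannot give a two-sided p below 0.33. Differences below are therefore measured values with their standard errors (SE, from the limma fit, 2 arrays a group), and separation of the groups, with both Wnt3A arrays on the same side of both controls, is given for the members.

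Of the 23 member probe sets, 16 had a higher mean with Wnt3A (69.6%, against 51.7% of all probe sets) and 7 a lower one (30.4%, against 48.3%). Both Wnt3A arrays lay above both controls for 9, belonging to Axin2, Nkd1, Notum, Sp5, Znrf3 and Apcdd1, against 17.4% of all probe sets. Both lay below both controls for 3, belonging to Axin2, Lef1 and Nkd1, against 16.3% of all probe sets. A non-overlapping difference of at least 1 log2 unit upwards was found for 4 member probe sets, 1 of Axin2, 1 of Notum and 2 of Apcdd1, against 0.755% of all probe sets. The median difference over the 23 was 0.12 log2 units, against 0.0065 over all probe sets. Probe sets of 1 gene can report the same transcripts and are not independent, so these counts weigh Apcdd1 most.

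**Figure D1:**
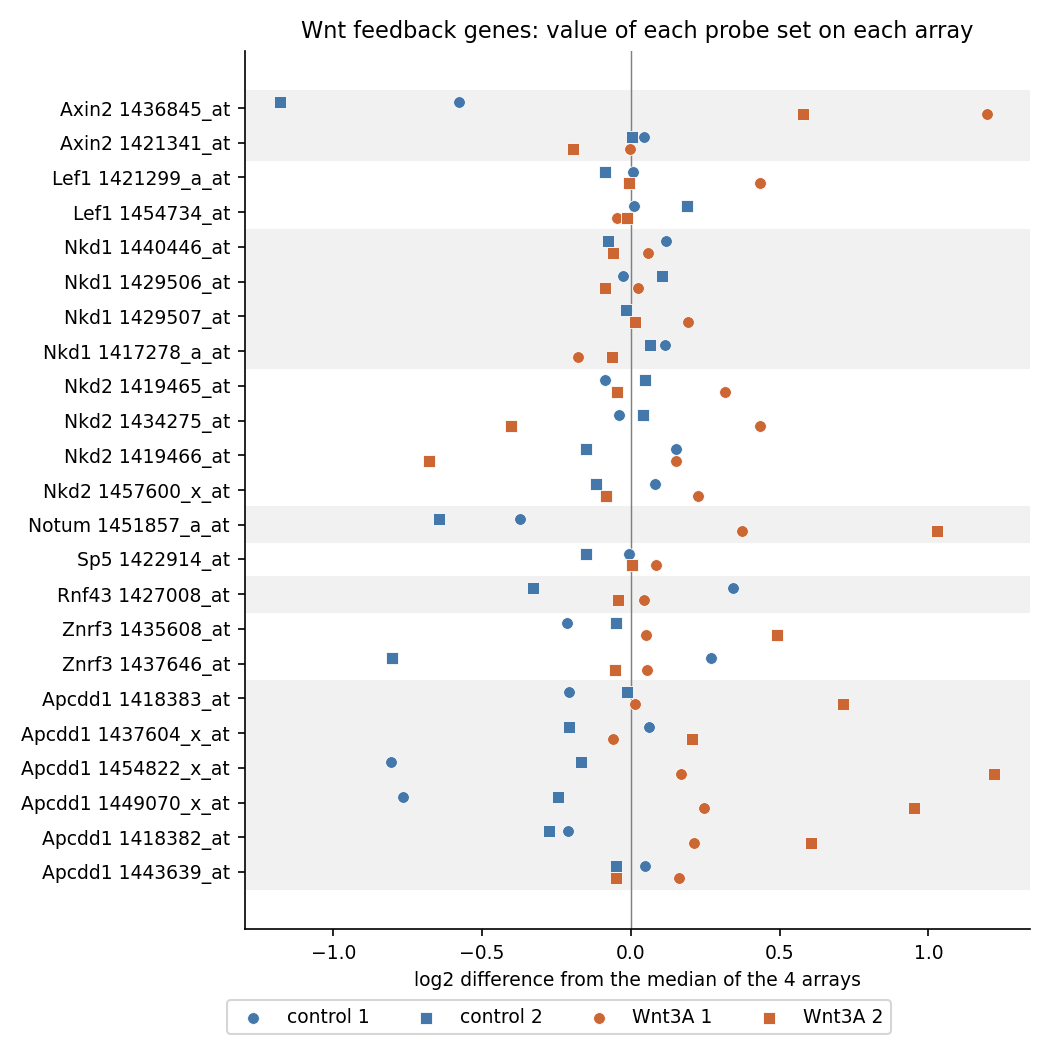
Each row is 1 probe set and each point 1 array, with the log2 difference from the median of the 4 arrays on the horizontal axis; circles are arrays numbered 1, squares arrays numbered 2, blue is control and orange Wnt3A, with controls drawn slightly above the row. The colours are parted most widely for Axin2 1436845_at, where the controls were at -0.58 and -1.18 and the Wnt3A arrays at 1.20 and 0.58, and they are mixed in every row of Nkd2.

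Axin2 had the largest difference among the members. In probe set 1436845_at the controls 1 and 2 were at -0.58 and -1.18 and the Wnt3A arrays 1 and 2 at 1.20 and 0.58. Both Wnt3A arrays were high and both controls low, with a gap of 1.16 log2 units between the nearest arrays of the 2 groups. The difference was 1.76 ± 0.32 log2 units (SE), or 3.40-fold, with an unadjusted p of 0.0041 and a limma adjusted p of 0.65. Sorted by signed difference it stood at place 85 of all probe sets, and 0.298% of probe sets differed by more in absolute size. Leaving out 1 array at a time gave differences from 1.46 to 2.07.

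The other Axin2 probe set, 1421341_at, lay in the lowest level band and did not show this. Controls 1 and 2 were at 0.043 and 0.0041 and Wnt3A 1 and 2 at -0.0041 and -0.19, a difference of -0.12 ± 0.13. The groups did not overlap, but the gap between them was 0.0081, smaller than the distance between array medians. They stayed separated downwards after each array was centred on its median and after quantile normalization. With all probe sets of a gene averaged, Axin2 differed by 0.82 ± 0.20.

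The sequence before the Axin2 start site is shown because Axin2 carried the largest difference. That of Sp5 is shown because, of the member windows searched, it was the 1 with a match to a Tcf/Lef core. Sequences are the 250 bases upstream of the RefSeq start site in build GRCm38.p6, on the plus strand, 5′ to 3′, at chr11:108920099-108920348 for Axin2 and chr2:70474673-70474922 for Sp5. Capitals mark the match CTTTGAT, searched with CTTTGAA on both strands.
Axin2: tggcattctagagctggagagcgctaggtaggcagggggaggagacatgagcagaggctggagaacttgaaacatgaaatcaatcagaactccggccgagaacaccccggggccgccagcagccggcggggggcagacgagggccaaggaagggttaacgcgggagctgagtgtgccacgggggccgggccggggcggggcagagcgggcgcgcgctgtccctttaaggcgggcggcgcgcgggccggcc
Sp5: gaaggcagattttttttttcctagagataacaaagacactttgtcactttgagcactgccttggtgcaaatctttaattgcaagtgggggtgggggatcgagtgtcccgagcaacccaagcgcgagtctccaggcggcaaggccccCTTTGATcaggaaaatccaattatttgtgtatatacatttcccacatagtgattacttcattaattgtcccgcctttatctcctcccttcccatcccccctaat
The Sp5 match begins 104 bases before the start site. Neither set of letters was found in the Axin2 window, which is 69.2% G and C against 46.0% for Sp5. One or both motifs occurred in 7.48% of 32851 promoter windows of this length, CTTTGAT alone in 3.21% and CTTTGAA in 4.46%. Windows were searched for 7 of the 10 genes, Tcf7 included, 12 windows in all, and of these the Sp5 window was the 1 with a match. Member windows on 1 chromosome were left out of the search, although the 7.48% counts windows on every chromosome. No window of Notum, Znrf3 or Apcdd1 was searched, so a match in these genes is not known. A match is a run of letters and not a measured binding site.

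Notum, the secreted deacylase that inactivates Wnt proteins, had the next largest difference. On its probe set, 1451857_a_at, controls 1 and 2 stood at -0.37 and -0.65 and the corresponding Wnt3A arrays at 0.37 and 1.03. The groups were 0.74 apart at their nearest arrays, and Wnt3A 2 was the highest. The difference was 1.21 ± 0.27, or 2.31-fold (unadjusted p = 0.0092, limma adjusted p = 0.72), and it lay between 0.88 without Wnt3A 2 and 1.54 without Wnt3A 1. A larger absolute difference was found for 0.966% of probe sets.

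Apcdd1, the membrane inhibitor that binds Wnt and Lrp proteins, was higher on average in all 6 of its probe sets, and its groups did not overlap in 4. Probe set 1454822_x_at read -0.81 and -0.17 in controls 1 and 2, and 0.17 and 1.22 in Wnt3A 1 and 2. Probe set 1449070_x_at read -0.77, -0.25, 0.25 and 0.95 in the same order. Both showed control 1 lowest and Wnt3A 2 highest, with control 2 and Wnt3A 1 between them, and the differences were 1.18 ± 0.44 and 1.11 ± 0.32. Without Wnt3A 2 they were 0.66 and 0.75. The suffix x marks probe sets in which some probes may also bind other sequences.

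Probe set 1418382_at, without that suffix, read -0.21 and -0.28 in the controls against 0.21 and 0.61 with Wnt3A, a difference of 0.65 ± 0.18 (unadjusted p = 0.019, limma adjusted p = 0.74). In 1418383_at, which lay in the upper band, the controls read -0.21 and -0.013 and the Wnt3A arrays 0.013 and 0.71. Its difference of 0.47 ± 0.27 rested on Wnt3A 2, being 0.12 without that array and 0.82 without Wnt3A 1, and its gap of 0.027 closed when arrays were centred. The remaining probe sets, 1437604_x_at and 1443639_at, had overlapping groups and differed by 0.15 ± 0.17 and 0.056 ± 0.14. Averaged over all 6, Apcdd1 differed by 0.60 ± 0.20. Over its 2 upper-band probe sets alone the difference was 0.31 ± 0.20.

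Znrf3 and Rnf43 encode related membrane ubiquitin ligases that clear Frizzled receptors from the cell surface. The upper-band Znrf3 probe set, 1435608_at, gave -0.22 and -0.052 for controls 1 and 2, then 0.052 and 0.49 for Wnt3A 1 and 2. Both Wnt3A arrays were above both controls, by 0.10 at the nearest, and the difference was 0.41 ± 0.20 (limma adjusted p = 0.86), between 0.19 without Wnt3A 2 and 0.63 without Wnt3A 1. The second Znrf3 probe set, 1437646_at, overlapped between groups: its control arrays, at 0.27 and -0.80, enclosed the Wnt3A arrays at 0.053 and -0.053. Rnf43 1427008_at had the same arrangement, with 0.34 and -0.33 in the controls against 0.044 and -0.044 with Wnt3A, and a difference of -0.0083 ± 0.26. For both of these probe sets the spread within the control group, 0.76 and 0.47 as SD, was larger than the difference between groups, and the sign turned when 1 array was left out.

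Nkd1 and Nkd2, the naked cuticle proteins that bind Dishevelled, had small differences in both directions. The 4 Nkd1 probe sets differed by -0.21, -0.071, -0.021 and 0.12, and their SE lay between 0.12 and 0.14. One of them, 1417278_a_at, was separated downwards, with 0.11 and 0.063 in the controls against -0.18 and -0.063 with Wnt3A. Another, 1429507_at, was separated upwards by a gap of 0.028, with -0.014 and -0.015 for vehicle and 0.19 and 0.014 for Wnt3A, so the probe sets of this gene pointed both ways. The difference of 1429507_at was 0.029 without Wnt3A 1, and the groups overlapped in the other 2 Nkd1 probe sets. The 4 Nkd2 probe sets differed by -0.26 to 0.16 and overlapped in every case. In Nkd2 1434275_at the 2 Wnt3A arrays were the highest and the lowest of the 4, at 0.44 and -0.40, with the controls at -0.041 and 0.041 between them.

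Lef1, a Tcf/Lef transcription factor that is itself a Wnt target, had small differences of opposite sign in its 2 probe sets, both in the middle band. Probe set 1421299_a_at read 0.0073 and -0.088 in the controls against 0.43 and -0.0073 with Wnt3A, so Wnt3A 1 alone was high. Its difference was 0.25 ± 0.19, and 0.033 without Wnt3A 1. In 1454734_at the controls read 0.012 and 0.19 and the Wnt3A arrays -0.047 and -0.012, a difference of -0.13 ± 0.13. Once each array was centred on its median, the groups overlapped in 1454734_at and no longer overlapped in 1421299_a_at. Sp5, a zinc finger transcription factor and direct target in embryos, read -0.0047 and -0.15 in the controls against 0.086 and 0.0047 with Wnt3A in probe set 1422914_at. Its groups were separated by 0.0093 and the difference was 0.12 ± 0.13, near the 0.13 that was the median absolute difference of all probe sets.

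**Figure D2:**
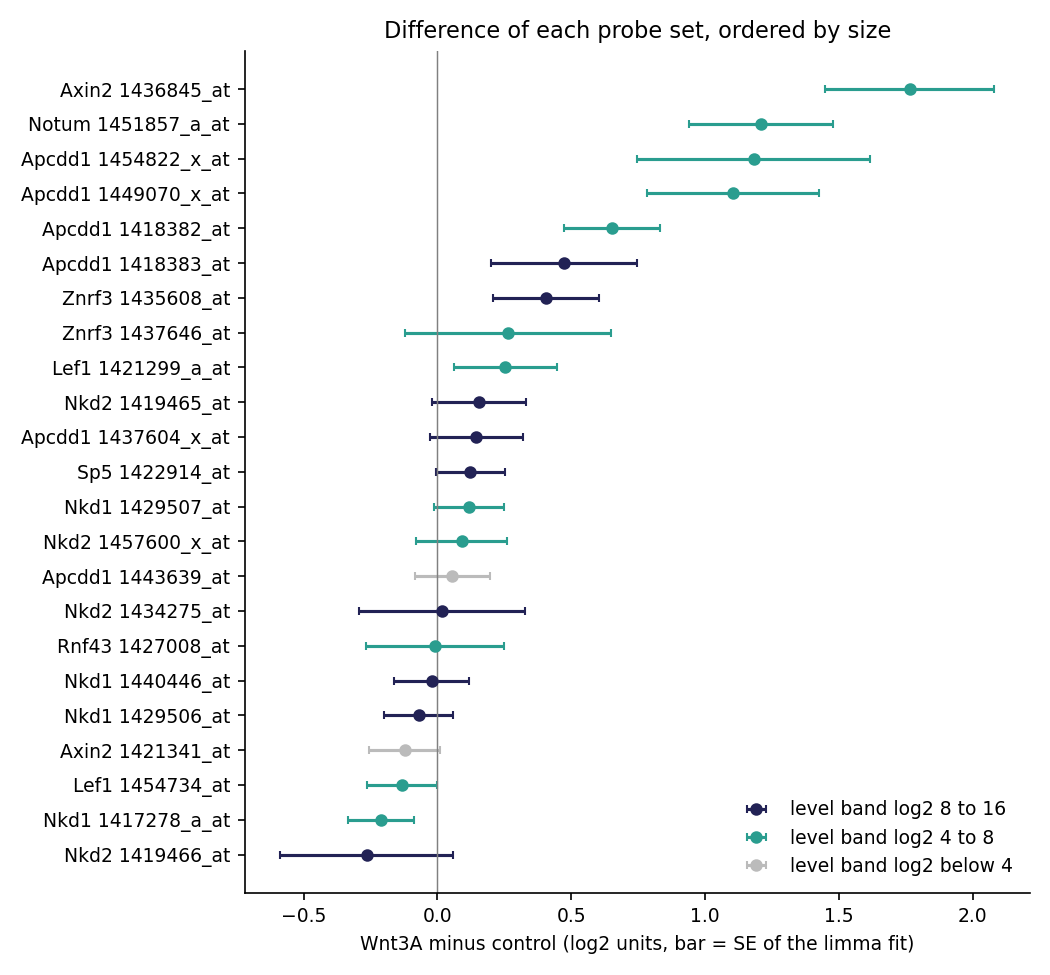
Points are the Wnt3A minus control differences of the 23 member probe sets in log2 units, ordered by size, with bars for the SE of the limma fit and colour for the level band. The 4 largest, between 1.11 and 1.76, all lie in the middle band, and the lowest is Nkd2 1419466_at at -0.26.

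Related members were set side by side. Axin1, the constitutive scaffold that Axin2 resembles, differed by 0.24 ± 0.31 in probe set 1426966_at and by -0.015 ± 0.13 in 1426967_at, with overlapping groups in both, against 1.76 ± 0.32 and -0.12 ± 0.13 for Axin2. For the ubiquitin ligases the values were 0.41 ± 0.20 and 0.27 ± 0.39 for Znrf3 and -0.0083 ± 0.26 for Rnf43. Averaged over all probe sets of a gene, Nkd1 differed by -0.046 ± 0.11 and Nkd2 by -0.00011 ± 0.23. These pairs were not tested against each other, and Lef1 had no counterpart because the expression of Tcf7 was not analysed here.

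The arrays did not order the members alike. Axin2 1436845_at was highest in Wnt3A 1, while Notum, Znrf3 1435608_at and the 4 separated Apcdd1 probe sets were all highest in Wnt3A 2. The median over the 23 member probe sets was -0.0047 and -0.088 on controls 1 and 2, against 0.15 and -0.012 on Wnt3A 1 and 2. Markers of squamous keratinocytes, the cells that cornify in skin, were also highest in Wnt3A 2 by their median, though not in every probe set. Of their 14 probe sets for 10 genes, 13 had a higher mean with Wnt3A (92.9%, against 51.7% of all probe sets). Both Wnt3A arrays lay above both controls in 7 (50.0%, against 17.4% of all probe sets). The median of this list was -0.51 and -0.33 in controls 1 and 2 and 0.082 and 1.48 in Wnt3A 1 and 2. None of these 14 probe sets lay in the lowest band. Markers of basal epithelium had 26 probe sets for 9 genes, with a median difference of 0.20. Of these 11 were separated upwards (42.3%, against 17.4% of all probe sets) and 2 downwards (7.69%, against 16.3%). Several of the 11 were probe sets of Itgb1, which are not independent. The mean was higher with Wnt3A in 18 of the 26 and lower in 8. Mylk ran from -0.83 ± 0.58 to 0.19 ± 0.15 over its probe sets. The array medians of the basal list were -0.11 and -0.035 in controls 1 and 2 and 0.025 and 0.087 in Wnt3A 1 and 2. Markers of luminal epithelium had 17 probe sets for 9 genes, of which 1 was separated upwards and 3 downwards (17.6%, against 16.3% of all). These 3 were Foxa1 at -2.34 ± 0.50, Krt19 at -1.71 ± 0.82 and 1 of 2 Kit probe sets at -1.41 ± 0.53. The luminal list as a whole pointed both ways, with 8 probe sets higher on average with Wnt3A and 9 lower (52.9%, against 48.3% of all probe sets). Krt8 differed by 0.17 to 0.30 over its probe sets and Krt18 by 0.17 ± 0.20, with overlapping groups. The array medians of the luminal list lay between -0.096 and 0.085. The part of squamous, basal and luminal cells in the differences of the members was not tested, and in bulk samples fewer cells of a type and less RNA per cell cannot be told apart. The fibroblast, endothelial and leukocyte marker lists had array medians between -0.062 and 0.12. Of 16 fibroblast probe sets, 3 were separated upwards (18.8%, against 17.4% of all probe sets) and 2 downwards (12.5%, against 16.3%). These 2 were of Pdgfra, at -1.76 ± 0.48 and -0.54 ± 0.16, while its other probe set differed by 0.017 ± 0.26. The erythroid list had 2 probe sets and array medians between -0.10 and 0.15. The part of these cells in the member differences was not tested either.

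**Figure D3:**
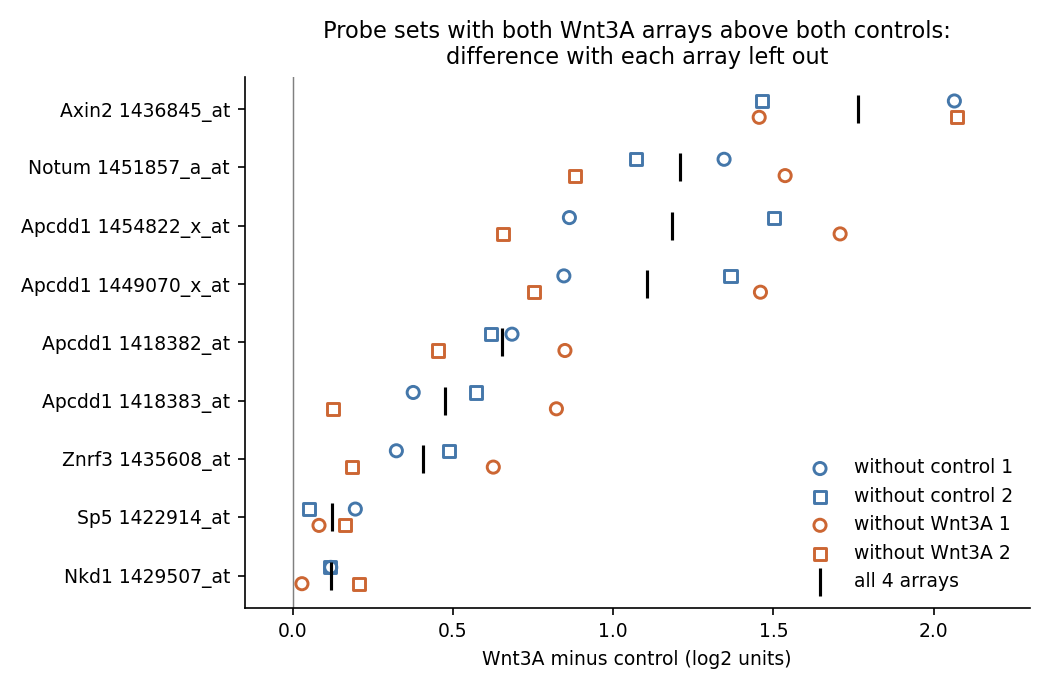
For the 9 probe sets with both Wnt3A arrays above both controls, the black bar is the difference from all 4 arrays and the open symbols are the differences with 1 array left out, in log2 units. Every symbol lies above 0; Axin2 1436845_at stays between 1.46 and 2.07, and Apcdd1 1418383_at ranges from 0.12 to 0.82.

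The rest of the pathway was described by 4 lists, again with 0 probe sets called by limma in any. The list of destruction complex and core transducer genes had 58 probe sets for 17 genes with a median difference of -0.0055. Of these 8 were separated upwards (13.8%, against 17.4% of all probe sets) and 5 downwards (8.62%, against 16.3%), and 3 had an unadjusted p under 0.05 (5.17%, against 6.22%). Left-out arrays moved the median between -0.0090 and 0.027. Its largest separated difference was that of Fbxw11, a substrate adaptor that recognises phosphorylated beta-catenin, at 1.27 ± 0.45 in 1447294_at and 0.78 there without Wnt3A 2. The other 4 Fbxw11 probe sets differed by between -0.061 and 0.66. Btrc, its close relative, was separated downwards at -0.50 ± 0.18 in 1457305_at, while its other 4 probe sets overlapped and lay between -0.11 and 0.0049. Gsk3b, the kinase of the complex, was separated upwards at 0.47 ± 0.25 in 1439931_at, or 0.14 without Wnt3A 2. The other 5 Gsk3b probe sets overlapped and lay between -0.76 and 0.58.

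The list of nuclear partners of beta-catenin had 33 probe sets for 15 genes. Of these 26 had a lower mean with Wnt3A (78.8%, against 48.3% of all probe sets) and 7 a higher one. Both Wnt3A arrays were below both controls in 8 (24.2%, against 16.3%) and above them in 0 (against 17.4%), and 5 had an unadjusted p under 0.05 (15.2%, against 6.22%). The median was -0.18, against 0.0065 over all probe sets. Tcf7l2, the Tcf/Lef factor prominent in intestinal Wnt signalling, accounted for 4 of those 8. It also accounted for 4 of the 5 with an unadjusted limma p under 0.05, and these 4 are not independent. Its probe set 1429427_s_at read 1.21 and 0.27 in controls 1 and 2 and -0.27 and -1.02 in Wnt3A 1 and 2, a difference of -1.38 ± 0.43 (limma adjusted p = 0.76). The other 3 differed by -1.13 ± 0.30, -1.06 ± 0.31 and -0.50 ± 0.17. Control 1 was the highest array in 3 of the 4, and without it the 4 differences were -0.92, -0.76, -0.74 and -0.68.

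Tcf7l1, a family member that mainly represses targets, was separated downwards in 1450117_at, at 0.16 and 0.81 in the controls against -0.16 and -0.28 with Wnt3A. Its difference there was -0.70 ± 0.25, or -0.38 without control 2, and it was -0.16 ± 0.16 in its other probe set, where the groups overlapped. Bcl9l, a co-activator that binds beta-catenin, was at -0.56 ± 0.35 in 1419180_at, which rested on Wnt3A 1 at -0.98 and was -0.084 without it. Its other 2 probe sets overlapped, at -0.099 and -0.048. Left-out arrays kept the median of this list below 0, between -0.23 and -0.072, but the number with a lower mean ran from 21 to 29 of 33. Without control 1, 7 probe sets were higher in both Wnt3A arrays than in the lone control.

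Receptors that Rnf43 and Znrf3 act on, together with the R-spondin receptors of the Lgr family, pointed both ways. Of 35 probe sets for 15 genes, 9 were separated upwards (25.7%, against 17.4% of all probe sets) and 12 downwards (34.3%, against 16.3%), and 8 had an unadjusted p under 0.05 (22.9%, against 6.22%). The median was -0.071, but 0.027 without Wnt3A 2 and -0.16 without Wnt3A 1, where 22 were below both controls. Lgr5 and Lgr6, both receptors for R-spondins, were opposed. Lgr5 1450988_at read 0.52 and 0.77 in the controls against -1.16 and -0.52 with Wnt3A, a difference of -1.48 ± 0.26, with -0.14 ± 0.14 in the other probe set, where the groups were not separated. Lgr6 differed by 1.21 ± 0.51 and 1.19 ± 0.30 in its 2 probe sets, and both were lowest in control 1, at -1.60 and -1.03, the first differing by 0.50 without that array. Fzd5, a Frizzled receptor, differed by 0.56 ± 0.15 and 0.29 ± 0.13 and was separated upwards in both. Frizzled genes just below it in absolute size went the other way, Fzd9 at -0.563 and Fzd7 at -0.562 and -0.538, all separated downwards. Further Frizzled probe sets were separated in either direction.

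Other textbook canonical targets, a list that repeats Lgr5 and Lgr6, had 57 probe sets for 25 genes. Of these 17 were separated upwards (29.8%, against 17.4% of all probe sets) and 9 downwards (15.8%, against 16.3%), and 9 had an unadjusted p under 0.05 (15.8%, against 6.22%). The median was 0.083, turning to -0.019 without Wnt3A 1. Ccn4, a secreted matricellular protein long known as a Wnt-induced gene, had the largest difference. Its probe set 1448594_at read -2.32 and -0.53 in controls 1 and 2 and 0.53 and 1.20 in Wnt3A 1 and 2, a difference of 2.29 ± 0.67 that was 1.39 without control 1 and 3.19 without control 2. The second Ccn4 probe set, 1448593_at, was arranged alike, with a difference of 1.25 ± 0.40. Tnfrsf19, a receptor of the tumour necrosis factor family, differed by 1.54 ± 0.85 in 1448147_at, which lay in the lowest band, and by 0.31 there without Wnt3A 2. The groups were separated in that probe set and overlapped in its other 2, both in the middle band, at -0.015 and 0.15.

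**Figure D4:**
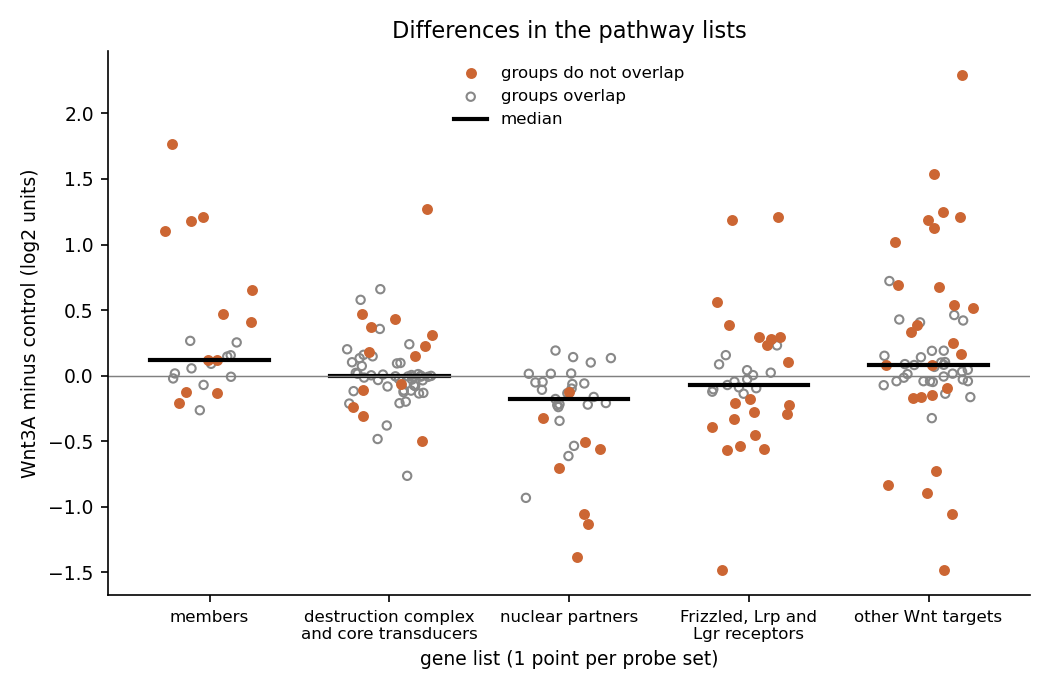
Each point is 1 probe set, with the Wnt3A minus control difference in log2 units on the vertical axis and the 5 gene lists along the horizontal axis; filled points have groups that do not overlap, and black lines are medians. The nuclear partners have no filled point above 0 and a median of -0.18, and the members reach from -0.26 to 1.76 with a median of 0.12.

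The genes outside the list whose 4 values lay nearest to those of Axin2 1436845_at, by Euclidean distance over the 4 arrays, were named as a description of pattern. They were Il1a (distance 0.336), Dusp9 (0.338), Slc25a48 (0.363), Ddah1 (0.417) and Ces2g (0.494). Each distance is that of 1 probe set, the nearest of its gene. Over all probe sets of a gene, differences ran from 0.71 to 1.57 for Dusp9 (3 probe sets) and from 0.25 to 1.65 for Slc25a48 (3). For Ddah1 (5) they ran from 0.25 to 1.68. Il1a and Ces2g had 1 probe set each. The nearest member was Notum at 1.08, followed by Apcdd1 1418382_at at 1.38. Il1a, an epithelial cytokine, read -0.77 and -1.02 in the controls against 1.43 and 0.77 with Wnt3A. With 4 arrays, close patterns are found for many of 45037 probe sets, and distance also depends on the size of a difference.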

How the data were processed

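RNA of 2 control and 2 Wnt3A samples was hybridised to Affymetrix Mouse Genome 430 2.0 arrays with a single colour. The deposited log2 values are RMA output (version not stated), per the submitters' processing notes. The median of every row over the 4 arrays was 0, so each row had been centred, a step not given in the sources used here; direction and differences are kept and levels are not. After 64 array controls were left out, 45037 probe sets remained, 34945 with 1 gene symbol, 932 with several and 9160 with none; 34741 Entrez identifiers matched RefSeq and no symbol changed. Level bands came from the spacing of the stored numbers and can by chance be read too high. Wnt3A was tested against control by limma 3.58.1 under R 4.3.3 (functions lmFit and eBayes; no covariate, 2 residual and 2.30 prior degrees of freedom, two-sided, Benjamini-Hochberg over all 45037 probe sets, threshold 0.05); the fit was tested on simulated data. The number of arrays limits the precision: the median SE of a difference was 0.16. Members, gene lists and the naming rule (every member probe set, and in each list the 3 genes with the largest non-overlapping difference) were chosen with earlier results of these data known. The alternatives were other scalings, level filters, gene summaries, robust variance, a replicate block and each array left out. Figures were drawn with matplotlib 3.10.9.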

Additional observations from a re-analysis of the deposited data

How the results depend on the processing

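limma called 0 probe sets, of all and of each pathway list, under every alternative run with all 4 arrays. Counts at an unadjusted limma p under 0.05 ran from 1134 to 4882, but over unlike totals. The 1134 were of 15147 probe sets in the highest level band and the 4882 of 45037 probe sets, while the gene summaries covered 18193 genes. Replicate numbers are shared by the groups, and same-numbered arrays deviated together (correlation 0.53 over probe sets), but 2 pairs do not establish pairing; with the replicate number as a block limma still called 0, with 4882 at an unadjusted p under 0.05 against 2801 and a smallest adjusted p of 0.37. The member median of 0.12 ran from 0.029 without Wnt3A 1 to 0.20 without control 1. Counts with left-out arrays or rescaling were added after seeing the data. The 9 non-overlapping higher member probe sets became 10 to 15 with 1 array left out, where 3 arrays separate more easily, and the 4 at least 1 log2 unit higher became 1 (without Wnt3A 2) to 4, and 2 after quantile normalization. Of the 9 non-overlapping higher probe sets, 8 kept a positive difference under each alternative run on them, and Nkd1 1429507_at turned negative with 1 value per gene. Signs turned with arrays left out for Nkd1 1440446_at (-0.12 to 0.076), Nkd2 1419465_at (-0.025 to 0.34), Nkd2 1434275_at (-0.40 to 0.44), Nkd2 1419466_at (-0.68 to 0.15), Nkd2 1457600_x_at (-0.064 to 0.25), Rnf43 1427008_at (-0.34 to 0.33), Znrf3 1437646_at (-0.27 to 0.80) and Apcdd1 1443639_at (-0.050 to 0.16). Signs also turned with 1 value per gene for Lef1 1454734_at (0.061 by either summary), for Nkd2 1419465_at and 1434275_at (-0.030 from the upper band, -0.00011 from all probe sets), and, from all probe sets, for Axin2 1421341_at (0.82), Nkd1 1429507_at (-0.046) and Nkd2 1457600_x_at (-0.00011). With 1 value per gene, a probe set is replaced by a mean over probe sets of its gene, so its own value did not change. The cause of the turns with arrays left out was not tested. Axin2 1436845_at was 0.82 as the mean of both probe sets and 2.07 after quantile normalization. Centring each array moved the median of all probe sets by under 0.1.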
